A study of Mus musculus with 6 samples.

Results

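The genes described here encode the regulators of late cell cycle transcription: the Myb proteins Mybl2 and Mybl1, the MuvB subunits Lin9, Lin37, Lin52 and Lin54, and the retinoblastoma family of pocket proteins, Rb1, Rbl1 and Rbl2. They were taken by gene symbol from a list of 10 names, of which 9 were matched among the 19505 genes measured, each by 1 probe set. The tenth, Foxm1, was not matched and is not analysed here. All 9 entered the test, since no filter on low values was applied.

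The samples were 3 of 393P cells with stable AC9 overexpression and 3 of the same line with the empty VECTOR, on 1 Affymetrix Clariom S array each. The line comes from a mouse lung adenocarcinoma, and some labels write its name as 9393P. Both groups were kept in serum-containing RPMI, received their plasmid by jetPRIME transfection, and were put under puromycin or G418 to obtain stable transfectants. The sources used here do not give the drug for each group, whether the selected cells were clones, or whether a group's 3 samples were separate cultures. The p-values therefore cover the spread among these 6 arrays alone, and a difference of drug or of selected cells cannot be told apart from AC9. AC9 is a synonym of Adcy9, adenylyl cyclase 9, in the RefSeq gene table.

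The MuvB complex works as a switch. In resting cells it joins a pocket protein, p130 (Rbl2) or p107 (Rbl1), with E2F4 or E2F5 and a DP protein to form the DREAM complex, which holds cell cycle genes down. In cycling cells MuvB binds B-Myb (Mybl2) and later the forkhead factor FoxM1 instead, and switches on the genes of G2 and mitosis through a promoter element called the CHR, the cell cycle genes homology region.

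Adcy9 read 6.78, 6.60 and 6.82 log2 intensity on the AC9 arrays, against 6.12, 6.09 and 6.15 on the VECTOR arrays, a log2 change of 0.61 (SE 0.10, limma adjusted p 0.00264). The 90th percentile of the negative-control probe sets, 6.06 on average, served as a bound for dim signals, and 53.6% to 55.3% of genes lay above it per array. Of 9 epithelial markers, 7 lay above the bound on all arrays, with Cdh1 at 12.61 in AC9 and 12.84 in VECTOR, while Cldn7 and Esrp1 lay at the bound, above it on only some arrays of each group. Epcam, Krt7 and Cldn4 were called higher in AC9 and Krt19 lower. Under the bound on every array were 5 of 6 leukocyte markers, Ptprc and Csf1r among them, 5 of 6 endothelial markers and 5 of 7 fibroblast markers, while the leukocyte marker Cd14 was bright and rose by 0.91.

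Of the 9 regulators, 2 rose in the AC9 cells (Lin54 and Rb1), 2 fell (Lin37 and Rbl2) and 5 did not pass the test (Mybl2, Mybl1, Lin9, Lin52 and Rbl1). All changes were small, from -0.59 to 0.50 on the log2 scale, with a median of 0.31 against 0.02 over all genes. The test was limma's moderated test over all genes with an adjusted p of 0.05, by which 8.26% of all genes were higher and 9.29% lower in AC9, and a count of 2 among 9 in each direction is read only against these shares. The groups did not overlap for 6 of the 9, with AC9 above in 4 and below in 2, against 35.1% of all genes (17.3% above and 17.7% below).

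**Figure D1:**
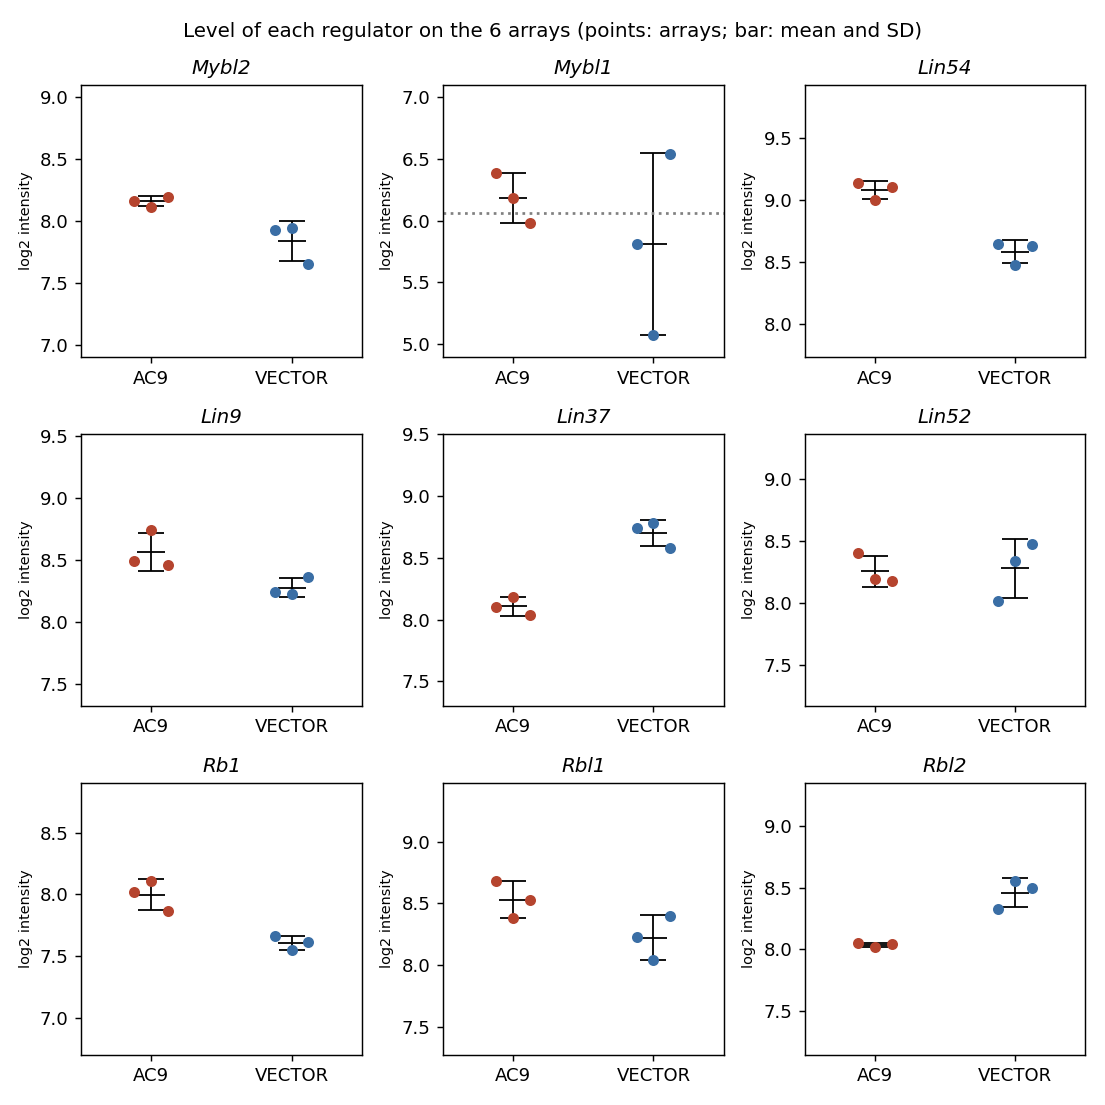
Each panel plots the log2 intensity (y axis, spanning the same number of log2 units in every panel) of 1 regulator on the 3 AC9 arrays (left) and the 3 VECTOR arrays (right), with the mean and SD. Lin54 and Rb1 sit higher and Lin37 and Rbl2 lower in AC9 without overlap, and the dotted line in the Mybl1 panel is the bound of 6.06 from the negative controls.

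Among the MuvB subunits, Lin54 and Lin37 changed in opposite directions. Lin54, the subunit that binds the CHR element in DNA, read 9.14, 9.00 and 9.11 log2 intensity on the AC9 arrays, against 8.64, 8.47 and 8.62 on the VECTOR arrays. Every AC9 array lay above every VECTOR array, by at least 0.35. The log2 change was 0.50 (SE 0.10), or 1.41-fold (limma adjusted p 0.00679), the 855th largest rise of 19505 genes.

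Lin37, a subunit needed for repression by DREAM, read 8.10, 8.19 and 8.04 log2 intensity in AC9, against 8.74, 8.78 and 8.58 in VECTOR. Here every AC9 array lay below every VECTOR array, by at least 0.39. Its log2 change was -0.59 (SE 0.10, limma adjusted p 0.00341), a 1.51-fold difference, and the largest in size among the 9 regulators. Lin54 and Lin37 kept their calls whichever array was left out, with adjusted p-values of at most 0.0333 for Lin54 and 0.0175 for Lin37.

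Lin9, a core scaffold subunit, read 8.49, 8.74 and 8.46 log2 intensity in AC9, against 8.24, 8.22 and 8.36 in VECTOR. The groups were separate, but by only 0.09, and the log2 change of 0.29 (95% interval 0.05 to 0.53) missed the threshold after adjustment (limma adjusted p 0.10, unadjusted 0.0241). With dim genes left out of the test, Lin9 passed it (adjusted p 0.0451), and so it did with an intensity-trended robust prior (0.0386). Both settings also called more of all genes than the main fit did.

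Lin52, the subunit that the kinase Dyrk1a phosphorylates when DREAM assembles, read 8.40, 8.19 and 8.17 log2 intensity in AC9, against 8.01, 8.34 and 8.48 in VECTOR. The groups overlapped throughout. Its log2 change was -0.02, with a 95% interval of -0.32 to 0.28 (limma adjusted p 0.934), and the sign turned when arrays were median-centred.

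The remaining MuvB subunit, the histone-binding protein Rbbp4, is no member of the list of 10. It averaged 10.22 ± 0.02 in AC9 and 10.30 ± 0.06 in VECTOR (SD, n = 3 each), a log2 change of -0.08 (95% interval -0.28 to 0.12, limma adjusted p 0.590). Of the 5 MuvB subunits, then, 1 rose, 1 fell and 3 did not pass, against 8.26% of all genes higher and 9.29% lower.

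The Myb proteins did not pass the test. Mybl2, or B-Myb, the activator that joins MuvB in S phase, read 8.16, 8.12 and 8.20 log2 intensity in AC9, against 7.93, 7.94 and 7.65 in VECTOR. Every AC9 array was above every VECTOR array, by at least 0.17, and VECTOR replicate 3 was the lowest. The log2 change of 0.32 (95% interval 0.08 to 0.55), or 1.25-fold, missed the threshold (limma adjusted p 0.0696, unadjusted 0.0142). It passed with dim genes left out (adjusted p 0.0290) and with the intensity-trended robust prior (0.0318).

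Mybl1, or A-Myb, is best known for its role in male germ cells. It read 6.38, 6.19 and 5.98 log2 intensity in AC9, against 5.81, 5.08 and 6.54 in VECTOR. Both groups straddled the bound from the negative controls, with 2 of 3 AC9 arrays and 1 of 3 VECTOR arrays above their own array's bound. The spread in VECTOR (SD 0.73) was the widest of any regulator in either group, and the log2 change of 0.37 had a 95% interval of -0.30 to 1.05 (limma adjusted p 0.460). The change was 0.0049 without VECTOR replicate 2 and 0.74 without VECTOR replicate 3. Myb, the founding relative of both, lay under the bound on all 6 arrays.

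The pocket proteins, which bind E2F factors and hold their targets down, split. Rb1, the retinoblastoma protein, read 8.02, 8.11 and 7.87 log2 intensity in AC9, against 7.66, 7.55 and 7.61 in VECTOR. No AC9 array reached down into the VECTOR range, with 0.20 between the groups. The log2 change was 0.39 (SE 0.10), or 1.31-fold (limma adjusted p 0.0241). Leaving out any 1 of 4 arrays ended that call, with an adjusted p of 0.0712 for VECTOR replicate 2, 0.0537 for VECTOR replicate 3, 0.0815 for AC9 replicate 1 and 0.0884 for AC9 replicate 2.

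Rbl2, or p130, the pocket protein most typical of DREAM in resting cells, read 8.05, 8.02 and 8.04 log2 intensity in AC9, against 8.33, 8.56 and 8.49 in VECTOR. The AC9 arrays were nearly level with each other and all lay below VECTOR, by at least 0.28. The log2 change was -0.42 (SE 0.10, limma adjusted p 0.0151), a 1.34-fold difference. The call was just lost without VECTOR replicate 2 (adjusted p 0.0506) or AC9 replicate 1 (0.0509).

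Rbl1, or p107, the pocket protein of cycling cells and itself an E2F target, read 8.68, 8.38 and 8.53 log2 intensity in AC9, against 8.23, 8.04 and 8.40 in VECTOR. The groups overlapped by 0.02, through AC9 replicate 2 and VECTOR replicate 3. Its log2 change was 0.31 (95% interval 0.03 to 0.58), which missed the threshold (limma adjusted p 0.124, unadjusted 0.0330) but passed with the intensity-trended robust prior (0.0407).

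Related regulators were also compared with each other within each array, in 4 pairs, by an exact two-sided permutation test. The 95% intervals are not from that test but from a t distribution with the pooled spread of the within-array differences. The changes of Rbl1 and Rbl2 differed by 0.73 on the log2 scale (95% interval 0.28 to 1.17) and those of Rb1 and Rbl2 by 0.81 (0.46 to 1.16). In both pairs the within-array difference did not overlap between AC9 and VECTOR. The exact p was 0.1 for each, the smallest that 3 arrays against 3 can give, and 0.2 after Benjamini-Hochberg adjustment over the 4 pairs. For Rbl1 minus Rb1 the difference of change was -0.08 (95% interval -0.52 to 0.35, exact p 0.7), and for Mybl2 minus Mybl1 -0.05 (-1.51 to 1.40, exact p 1). The interval for Mybl2 and Mybl1 is too wide to bound their difference usefully, while that for Rbl1 and Rb1 holds no difference as large as the 0.73 of Rbl1 and Rbl2.

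The array's background probe sets, designed against no mouse transcript, also read lower in AC9. Of 23, 19 were below VECTOR on every array, and the largest log2 difference was -0.50. Lin37 and Rbl2 moved the same way, and the part of the background in their falls was not tested. The 5222 negative controls did not share this fall: their median log2 difference, AC9 minus VECTOR, was 0.02.

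Of 8 genes for partner proteins, E2f4 rose and the other 7 did not pass (17.6% of all genes passed in either direction). These 7 include Rbbp4, counted above with the MuvB subunits, and Myb, which lay under the bound on every array. E2f4, the main E2F of DREAM, read 9.92, 9.94 and 9.95 log2 intensity in AC9, against 9.49, 9.63 and 9.43 in VECTOR, without overlap. Its log2 change was 0.42 (SE 0.09, limma adjusted p 0.0131). E2f5 changed by 0.01 (95% interval -0.29 to 0.32), and the DP proteins Tfdp1 and Tfdp2 by 0.10 and 0.05. Dyrk1a, the kinase that promotes DREAM assembly, changed by 0.02 (95% interval -0.19 to 0.23), and Lats2, a kinase that acts on Dyrk1a, by -0.26 (limma adjusted p 0.131).

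Of 17 measured cyclins, kinases and inhibitors, the genes that set the phosphorylation of these regulators, 6 rose, 2 fell and 9 did not pass, against 8.26% of all genes higher and 9.29% lower. Their median log2 change was -0.04. Cyclin A2 and Plk1, which act on B-Myb and FoxM1, and the mitotic kinase Cdk1 rose most, with log2 changes of 2.07 for Ccna2, 1.78 for Plk1 and 1.03 for Cdk1. These 3 genes also stand in the list of late targets below. The cyclin E genes Ccne1 and Ccne2 also stand in that of early targets, where Ccne2 is among those that rose. Cyclin E2, whose kinase phosphorylates pocket proteins, rose by 0.52 (Ccne2, limma adjusted p 0.0294) and Cdk6, a partner of D-type cyclins, by 0.42 (0.0369).

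The cyclin Ccnd3 read 10.34, 10.47 and 10.33 log2 intensity in AC9, against 10.95, 11.18 and 10.89 in VECTOR, a log2 change of -0.62 (SE 0.11, limma adjusted p 0.00400). Ccnd2 changed by -0.23 (adjusted p 0.131). Among the inhibitors, Cdkn1b, or p27, read 10.13, 9.87 and 10.00 in AC9, against 10.59, 10.69 and 10.77 in VECTOR, without overlap. That was a log2 change of -0.68 (SE 0.10, limma adjusted p 0.00213). Cdkn1a, or p21, rose by 0.37 (adjusted p 0.0183), so these related inhibitors changed in opposite directions. The other inhibitors measured did not pass, and the largest change in size among them was that of Cdkn2d (-0.33, limma adjusted p 0.0766). The calls of Cdk6, Ccne2 and Cdkn1a were the least firm: Cdk6 lost its call without any of the arrays except VECTOR replicate 3, at adjusted p-values of 0.0720 to 0.112, and also under repeated quantile normalization (0.0633). Ccne2 lost its call without VECTOR replicate 2 or 3 or AC9 replicate 1 or 3 (0.0605 to 0.107), and Cdkn1a without VECTOR replicate 1 or AC9 replicate 1 or 2 (0.0575 to 0.0687).

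**Figure D2:**
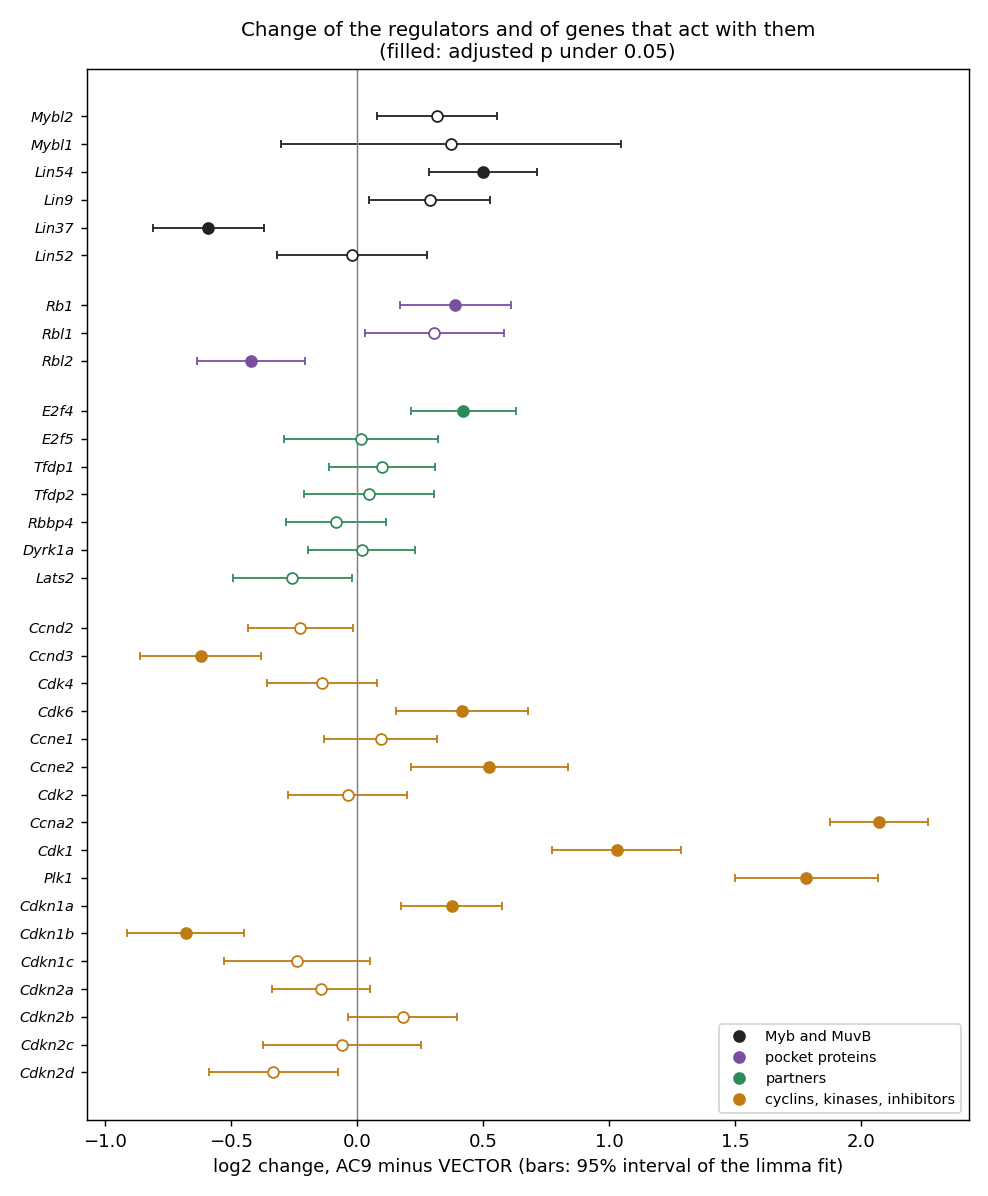
Points give the log2 change (x axis, AC9 minus VECTOR) of each regulator and of genes that act with them, with the 95% interval of the limma fit, and are filled where the adjusted p is under 0.05. The regulators lie between -0.59 and 0.50, while Ccna2, Plk1 and Cdk1 lie between 1.03 and 2.07.

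The genes that these regulators act on were counted in a list of late targets, switched on by B-Myb, MuvB and FoxM1, and a list of early targets, switched on by E2F at the start of S phase. Both lists were chosen with earlier results of these data known. Of 47 late targets, 45 rose and 0 fell (0 also at an unadjusted p of 0.05), with a median log2 change of 1.45. The other 2 were Cdc25b at 0.22 (limma adjusted p 0.361) and Psrc1 at 0.41 (0.0724). Of the 47, 8 lay under the bound on some or all VECTOR arrays, which makes the size of their rise less certain. Cdc25c, Kif14 and Cks2 were under it on all VECTOR arrays. The largest rises were those of the spindle motor Kif11 (2.38, or 5.22-fold, limma adjusted p 7.48e-06), the checkpoint kinase Bub1 (2.14, or 4.42-fold), the proliferation marker Mki67 (2.12, or 4.35-fold) and the kinetochore motor Cenpe (2.09, or 4.26-fold). Of 38 early targets, 10 rose and 0 fell (0 at an unadjusted p of 0.05 as well), with a median of 0.10. The changes ran from 0.79 for the ribonucleotide reductase subunit Rrm2 and 0.72 for the replication initiation factor Mcm10 to -0.35 for the flap endonuclease Fen1 (limma adjusted p 0.200), and 9 of the 38 were below 0. Smallest in size were the chromatin assembly subunit Chaf1b at -0.01 (adjusted p 0.956) and the clamp loader subunit Rfc3 at 0.01 (adjusted p 0.953). Over all genes, 8.26% were called higher and 9.29% lower.

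Averaged over its 47 genes, the late list stood at log2 levels of 8.59, 8.55 and 8.59 on the AC9 arrays, against 7.11, 7.09 and 7.29 on the VECTOR arrays. Within VECTOR, replicate 3 had the highest level of the late list and the lowest of Mybl2 (7.65) and Lin37 (8.58). Mybl1 (6.54), Lin9 (8.36), Lin52 (8.48) and Rbl1 (8.40) were at their highest within VECTOR on that array. Lin54, Rb1 and Rbl2 lay between. The largest regulator change in size, 0.59 for Lin37, was below that of 45 of the 47 late targets and above those of Cdc25b and Psrc1.

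**Figure D3:**
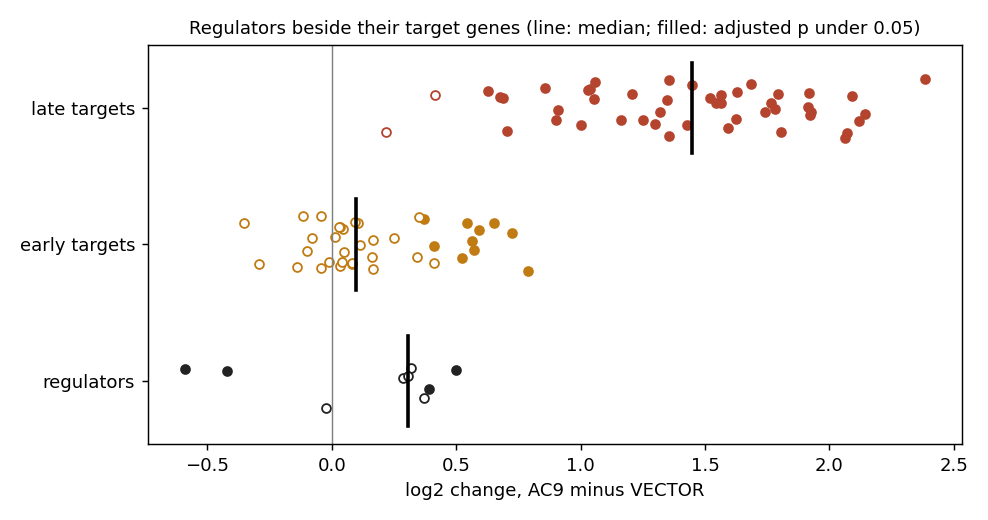
Each point is the log2 change (x axis, AC9 minus VECTOR) of 1 gene in the lists of late targets, early targets and regulators, filled where the adjusted p is under 0.05, with a line at each list's median. The medians are 1.45 for the late targets, 0.10 for the early targets and 0.31 for the regulators, and points are spread at random along the y axis.

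Matches to the letters of the CHR, the promoter element that Lin54 binds, are shown for late targets and regulators. Whether MuvB binds at these matches was not tested. RefSeq promoters of the build GRCm38.p6, from 250 bases before to 50 after each start, were held for 6 of the 9 regulators and 41 of the 47 late targets. Capitals mark the CHR, searched as TTTGAA and TTCGAA on both strands, in windows of 30 bases read 5′ to 3′ along the gene. A TTTGAA on the opposite strand reads TTCAAA. Mki67 and Cdk1 each hold a further match, and the one nearer the start is shown. Only promoters with a match are printed, and not all of these. The promoter of Cenpe, also among the largest rises, held neither form.

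Late target Kif11, chr19:37376351-37376380, + strand: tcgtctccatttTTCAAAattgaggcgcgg
Late target Bub1, chr2:127831828-127831857, - strand: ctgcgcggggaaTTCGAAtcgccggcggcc
Late target Mki67, chr7:135716460-135716489, - strand: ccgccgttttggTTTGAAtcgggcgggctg
Late target Plk1, chr7:122159453-122159482, + strand: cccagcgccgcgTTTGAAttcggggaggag
Late target Cdk1, chr10:69352910-69352939, - strand: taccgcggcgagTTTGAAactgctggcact
Regulator Lin54, second start, chr5:100498718-100498747, - strand: cccctgagtgcgTTTGAAggttggcggggc
Regulator Lin37, chr7:30559826-30559855, - strand: gagcctcggaagTTTGAAtcacaaccccca
Regulator Rbl2, chr8:91069844-91069873, + strand: ggtctttttctcTTCAAAcgagccttctga

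Positions are counted with the start base as 1 and the base before it as -1. In these late targets the shown match began at position -19 in Kif11, -15 in Cdk1, 15 in Bub1, 31 in Plk1 and -98 in Mki67. It began at -197 in Lin37 and -201 in Rbl2. Cdc25b and Psrc1, the late targets that did not pass, also held a TTCGAA, which is not printed. It began at 8 in Cdc25b and at 5 and -30 from different starts of Psrc1. The early target Rfc3 held a TTCGAA from -189. Lin54 held 3 matches, a TTTGAA at -162 (shown) and a TTCGAA at 30 from its second start and a TTTGAA at 41 from its first, so its matches lay both near and far. Mybl2, Rbl1 and Lin52 held neither form in this window. Lin52 held instead an E2F site, GGCGGGAA read on the opposite strand, from position -26, at chr12:84451471-84451500 on the + strand, with the site in capitals: ggatcctcgctTTCCCGCCgacggttggtt.

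At least 1 form of the CHR was found for 32 of the 41 late targets with a promoter (78.0%), 4 of 33 early targets (12.1%) and 3 of 6 regulators, against 19.6% of all 15691 tested genes with a promoter. An E2F site, GGCGGGAA or TTTGGCGC on either strand, was found for 0 of 41 late targets, 13 of 33 early targets (39.4%) and 1 of 6 regulators, against 4.14% of all. Other forms of the E2F site were not searched, so a promoter without these exact letters may still hold one. A CCAAT box was found for 34 of the 41 late targets (82.9%) and 42.2% of all, and the forkhead letters TAAACA for 6 (14.6%) and 13.2% of all. The Myb core AACNG was in 81.4% of all promoters and in those of all 6 regulators. The motifs were counted separately, so bases could serve more than 1 of them, and late targets are partly known as such from their CHR.

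Among all genes with a promoter, 9.09% of the 3068 with a CHR were higher in AC9, and 7.64% of the 12623 without one. Within the late targets the median log2 change was 1.35 for the 32 with a CHR and 1.74 for the 9 without, and 30 and 9 of them rose. These are counts of letters and not of bound sites.

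**Figure D4:**
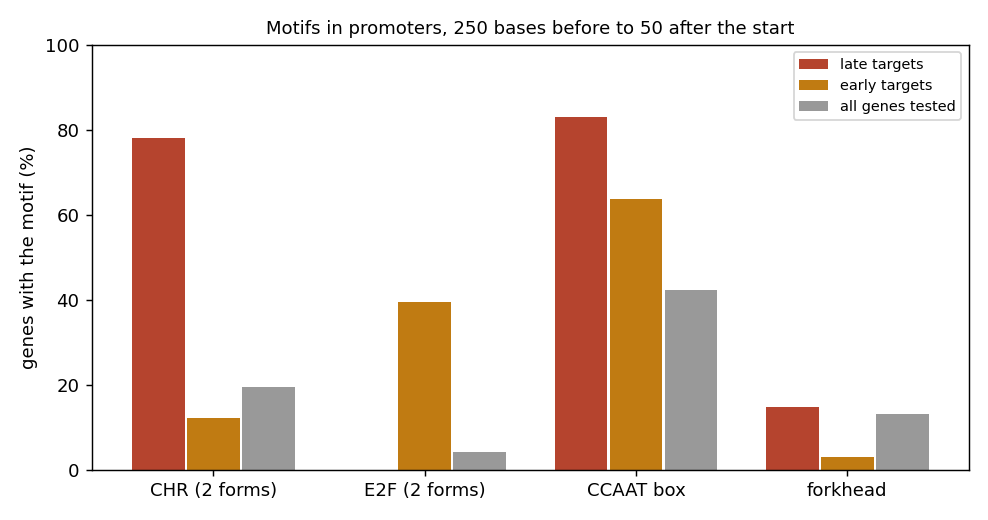
Bars give the share of genes (y axis, percent, from 0) whose promoter holds each motif, for late targets, early targets and all tested genes with a promoter. The CHR is in 78.0% of late targets, 12.1% of early targets and 19.6% of all, and the E2F site in 0, 39.4% and 4.14%.

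Lin37 and Rbl2, the regulators that fell, both hold a TTTGAA upstream, and the 250 bases before each start are printed so that the 2 promoters can be compared. Lin54, which rose, holds a TTTGAA upstream too, and 17.8% of all tested genes with a promoter hold one in the full window. Capitals mark every match to the CHR, E2F, CCAAT and forkhead letters. GC content was 55.6% in Lin37 and 46.8% in Rbl2.

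Lin37, chr7:30559647-30559896, - strand: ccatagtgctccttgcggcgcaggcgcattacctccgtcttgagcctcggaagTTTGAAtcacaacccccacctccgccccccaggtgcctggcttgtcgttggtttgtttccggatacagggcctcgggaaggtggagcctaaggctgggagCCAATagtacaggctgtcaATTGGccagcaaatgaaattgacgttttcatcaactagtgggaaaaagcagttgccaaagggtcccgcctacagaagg
Rbl2, chr8:91069807-91070056, + strand: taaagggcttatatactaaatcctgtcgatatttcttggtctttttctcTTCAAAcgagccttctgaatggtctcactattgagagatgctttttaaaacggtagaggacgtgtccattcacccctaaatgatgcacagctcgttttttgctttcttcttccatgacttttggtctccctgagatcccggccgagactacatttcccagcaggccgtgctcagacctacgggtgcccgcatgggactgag

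Lin37 holds CCAAT in each direction, from positions -97 and -78, and Rbl2 holds none there. Neither stretch holds an E2F or a forkhead match.

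Genes whose pattern over the 6 arrays was most like that of a regulator were sought by Pearson's r among 10298 named genes above the bound. For Mybl2 they were Ttll3 (r 0.9960), Neu4, Ccdc85c, the kinetochore gene Cenpu and Baiap2l1 (0.9747). For Rbl1 they were Wapl, which releases cohesin from chromosomes (0.9929), Tmem68, Rab23, Osbpl9 and Tvp23b (0.9865). For Rbl2 they were Mrtfa (0.9971), Tlcd3a, the CREB coactivator Crtc1, the sterol pathway kinase Mvk and Mrpl33 (0.9963). The 6 points share the same 2 groups and the same arrays, and the values are a description with no test.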

How the data were processed

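Total RNA of 6 samples was measured on Affymetrix Clariom S arrays. The deposited values are log2 intensities per probe set, made by the authors with RMA per the submitters' processing notes; no software version or genome build was found in the sources used here. Of 28846 probe sets, 19572 had 1 gene symbol in GEO's platform annotation, and all were matched by gene number to RefSeq (GRCm38.p6). With the highest probe set kept for 55 genes, 19505 genes remained.

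The AC9 and VECTOR arrays were fitted in limma 3.58.1 under R 4.3.3 (two-sided, no further normalization or filter, Benjamini-Hochberg over all genes, threshold 0.05), tested on simulated data. The number of arrays limits the precision. The rule for named genes allowed all regulators, partners and cyclin, kinase or inhibitor genes. It also allowed the 4 largest called and 2 smallest changes of each target list, and the 5 genes most like Mybl2, Rbl1 and Rbl2. Not all genes that the rule allowed are described, and the early targets Pole and Gins1 are among those left out. Fen1 and the promoters shown were chosen after their values were seen. The pair of Foxm1 and Mybl2 was not run, so pair p-values were adjusted over 4. Members and lists were chosen with earlier results of these data known. Alternatives covered the prior, normalization, centring, dim genes, probe sets, weights, replicate block, left-out arrays and threshold. Same-numbered samples did not deviate together (r 0.01, 0.08 and 0.01).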

Additional observations from a re-analysis of the deposited data

Results flagged for a closer look

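Outside the genes compared, 19 of the 23 background probe sets were lower in AC9 than in VECTOR without overlap, and 0 were higher, in data that no comparison of the regulators uses.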

How the results depend on the processing

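Under the alternatives the late targets called higher stayed at 44 to 46, Lin54 and Lin37 kept direction and call in all 14, and none of the regulators called in the main fit turned its sign. The count of regulators higher was 5 with the intensity-trended robust prior, 4 with dim genes left out, 1 at an adjusted p of 0.01 and 1 to 2 with 1 array left out. Lower ones numbered 1 at 0.01 and 1 to 2 with 1 array left out. The robust prior and the removal of dim genes also called more of all genes. With the prior 2249 were higher and 2425 lower, and with dim genes left out 2019 and 2288, against 1612 and 1812 in the main fit. Fewer genes pass 0.01 by construction: 5 early targets higher, and 729 of all genes higher and 941 lower. With 1 array left out, 6 to 9 early targets were higher and 0 to 1 lower (Fen1, without AC9 replicate 1), and 968 to 1491 of all genes were higher and 1206 to 1534 lower, fewest without AC9 replicate 1. The cause was not tested. Centring each array on its median gave 1861 higher and 1650 lower, against 1612 and 1812 in the main fit. With the replicate block, 2 regulators were higher and 2 lower, as without it, and of the genes named only Psrc1 changed its call (adjusted p 0.0305).

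Reversals concerned changes near 0 that were never called. Lin52 became 0.00658 under repeated quantile normalization, 0.00325 under centring and 0.00652 with array weights. Chaf1b became 0.0271, 0.0127 and 0.00762 under the same 3 settings, and E2f5 -0.00910 with array weights. With 1 array left out, the ranges were -0.154 to 0.0790 for Lin52, -0.0803 to 0.0591 for Chaf1b, -0.0417 to 0.111 for Rfc3, -0.141 to 0.109 for E2f5, -0.0518 to 0.116 for Tfdp2, -0.0415 to 0.0536 for Dyrk1a, -0.167 to 0.103 for Myb, -0.0910 to 0.0455 for Cdk2 and -0.158 to 0.0975 for Cdkn2c. The pair difference of Mybl2 and Mybl1 ran from -0.514 to 0.364 and that of Rbl1 and Rb1 from -0.150 to 0.0464. The pair of Foxm1 and Mybl2 was not run. Mybl1 ran from 0.0049 to 0.74 with 1 array left out, and its signal lay near the bound.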
